A study of Drosophila melanogaster with 2 samples.

Results

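The proteasome subunit genes are described here by the peaks that a tagged KLF protein left at their promoters. The members were the protein-coding genes of the Ensembl BDGP6 annotation whose symbol begins with Rpn or Rpt and a number, or with Prosalpha or Prosbeta. There were 48 of 13968 protein-coding genes. By symbol, 32 are canonical subunits (a prefix and a subunit number) and 16 are paralogue copies, whose symbols carry a further R or T. The samples were 2 chromatin immunoprecipitation libraries, biological replicates 1 and 3 of 1 group, made with an anti-GFP antibody from Drosophila melanogaster embryos of mixed sex aged 4 to 20 h. The embryos carried Bteb2, the zinc finger protein encoded by Klf15, with eGFP at its C terminus (1 transgenic line), and chromatin was sonicated to 200 to 800 bp. A single group gives no contrast between conditions, so genes were compared with genes, as counts and without a test. Whole embryos pool all tissues, and the peaks do not tell which cells they came from.

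The proteasome is the protease complex that degrades ubiquitin-tagged proteins, and nearly every cell needs it. Its core is a barrel of alpha rings, which gate the entrance, and beta rings, which hold the cutting sites. Its cap has a base, with the Rpt ATPases that unfold substrates, and a lid, which removes ubiquitin. Core and cap are needed together, and their genes are often regulated as a set. In Drosophila several of the copies, such as Prosalpha3T, Prosalpha4T1, Prosalpha4T2 and Prosalpha6T, are known as testis forms.

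The authors' set after a threshold on reproducibility, called optimal here, held 3350 peaks. These were the 3350 strongest of the 30000 pooled relaxed peaks. Each replicate's own relaxed list also held 30000. The pooled relaxed list is labelled as peaks and background, and its −log10 q-values went down to 0.18. An entry in it, called a pooled relaxed peak here, may therefore be background. A gene counted as having a peak if the distance from a summit to one of its transcription start sites (TSSs) was at most 1000 bp. The signal is the peak caller's value on the authors' scale, and ranks start at 1 for the strongest peak of a list. The depth of each library is unknown, since read totals are not part of these lists. Control chromatin and other tagged factors were not analysed here, so whether these promoters also recover with other proteins was not tested.

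Of the 48 members, 9 had an optimal peak (18.8%), against 20.4% of all protein-coding genes, so the list as a whole stood near the background. The peaks were unevenly placed within it. All 9 belonged to canonical cap subunits, 9 of 18 (50%). None of the 14 canonical core subunits and none of the 16 copies had one. The 9 genes were Rpn2, Rpn3, Rpn5, Rpn6, Rpn8, Rpn12, Rpn13, Rpt2 and Rpt5. Of the lid subunits 5 of 8 had an optimal peak, and of the base subunits 4 of 10, with 2 of the 6 Rpt ATPases among them. In the alpha and beta rings the counts were 0 of 7 and 0 of 7. Counting a peak for its nearest TSS alone left 4 of the 9 genes, or 4 of the 18 canonical cap genes. Over all 23 cap genes, copies included, the share fell from 39.1% to 17.4%, near the 14.2% of all protein-coding genes. The stronger 1675 optimal peaks left 5 of the 18 canonical cap genes, or 21.7% of the 23, against 11.5% of all protein-coding genes. Whether cap and core differ beyond chance was not tested.

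**Figure D1:**
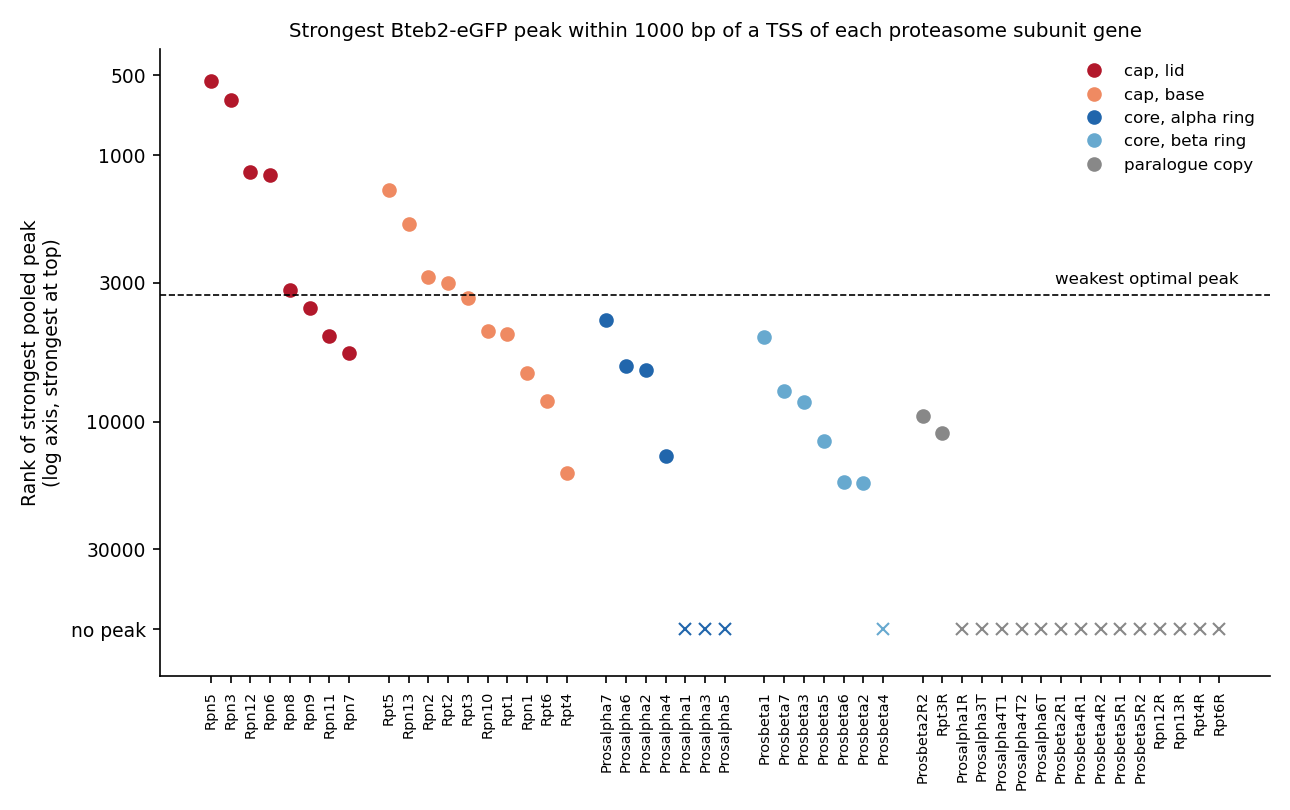
Rank of the strongest pooled peak within 1000 bp of a TSS for each of the 48 members (log axis, strongest at the top), by class of subunit, with crosses for members that have no pooled peak. The 9 points above the dashed line at rank 3350 are all cap genes, and 14 of the 16 copies are crosses.

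The promoters below are those of 3 cap genes with an optimal peak and, after them, of 2 core genes without one. They are shown because all 5 hold the same promoter element, the DRE (TATCGATA, the site of the factor DREF), which is in capitals. Each runs from 250 bases before to 50 after the TSS on the strand of the gene, from the RefSeq Release 6 assembly, whose arms carry the dm6 coordinates. Rpt5 is at chr3R:23752626-23752925 on the plus strand, Rpn3 at chr2L:19051540-19051839 on the plus strand and Rpn12 at chr3L:16582778-16583077 on the plus strand. Prosalpha6 is at chr2L:10221101-10221400 on the plus strand and Prosbeta6 at chr3L:16610369-16610668 on the minus strand. The DRE begins at -46 in Rpt5, at -197 in Rpn3 and at -216 in Rpn12. In Prosalpha6 it begins at -16 and in Prosbeta6 at -44, where the base before the TSS is -1. The optimal summits lay 31 bp upstream of the TSS in Rpt5, 21 bp downstream in Rpn3 and 110 bp upstream in Rpn12. In Rpn3 the element lies beyond the TSS of the neighbour l(2)37Bb, which is 178 bp upstream.
Rpt5: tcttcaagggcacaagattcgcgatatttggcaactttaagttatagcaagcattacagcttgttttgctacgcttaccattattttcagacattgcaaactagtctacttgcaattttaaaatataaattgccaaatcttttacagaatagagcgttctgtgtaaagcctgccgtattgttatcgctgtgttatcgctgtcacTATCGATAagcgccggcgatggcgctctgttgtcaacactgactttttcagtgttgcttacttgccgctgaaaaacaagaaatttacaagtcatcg
Rpn3: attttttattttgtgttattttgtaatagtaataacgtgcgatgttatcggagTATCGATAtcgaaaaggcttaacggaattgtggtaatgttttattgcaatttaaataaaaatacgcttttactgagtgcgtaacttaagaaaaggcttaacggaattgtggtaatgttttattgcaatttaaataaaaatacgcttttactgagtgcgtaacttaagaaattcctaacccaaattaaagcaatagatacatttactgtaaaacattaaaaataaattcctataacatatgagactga
Rpn12: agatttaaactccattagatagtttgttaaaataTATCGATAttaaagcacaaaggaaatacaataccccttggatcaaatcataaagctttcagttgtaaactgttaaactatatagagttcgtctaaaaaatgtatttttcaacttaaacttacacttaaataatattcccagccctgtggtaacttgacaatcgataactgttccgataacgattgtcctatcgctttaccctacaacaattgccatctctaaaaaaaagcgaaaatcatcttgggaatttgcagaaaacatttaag
Prosalpha6: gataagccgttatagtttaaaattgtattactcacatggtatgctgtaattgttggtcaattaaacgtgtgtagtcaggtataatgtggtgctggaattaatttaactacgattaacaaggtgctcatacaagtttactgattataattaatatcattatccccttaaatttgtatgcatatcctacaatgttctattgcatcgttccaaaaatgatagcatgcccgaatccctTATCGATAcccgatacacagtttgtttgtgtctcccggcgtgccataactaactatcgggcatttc
Prosbeta6: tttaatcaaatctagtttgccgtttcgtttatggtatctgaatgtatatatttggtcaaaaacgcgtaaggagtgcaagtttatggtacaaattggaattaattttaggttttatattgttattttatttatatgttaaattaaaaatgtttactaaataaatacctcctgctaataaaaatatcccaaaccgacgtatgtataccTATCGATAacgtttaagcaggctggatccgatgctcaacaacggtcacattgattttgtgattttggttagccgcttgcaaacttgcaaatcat

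The DRE occurred in some cap and some core promoters. Whether it bears on where the optimal peaks lie was not tested. In windows of 250 bases before to 50 after any TSS, read on both strands, it occurred in 6 of 18 canonical cap genes (33.3%), 6 of 14 canonical core genes (42.9%) and 1 of 16 copies (Rpt3R), against 10.2% of all protein-coding genes. Of the 6 cap genes with the element, 4 had an optimal peak (Rpn3, Rpn12, Rpn13 and Rpt5) and Rpn7 and Rpn9 did not. Of the 6 core genes with it (Prosalpha3, Prosalpha5, Prosalpha6, Prosbeta1, Prosbeta2 and Prosbeta6), 0 had one. Over all 1419 protein-coding genes with a DRE in this window, 31.5% had an optimal peak. Letters that match are a description of these windows and not a bound site.

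Counted over all members in the promoter windows, other elements stood above or below their background by fewer percentage points than the DRE. Motif 1 (GGTCACACT, the site of M1BP) occurred in 3 canonical cap genes (Rpn1, Rpn7 and Rpn8), 3 canonical core genes (Prosalpha2, Prosalpha4 and Prosbeta3) and no copy, 6 of 48 members in all (12.5%) against 6.77% of all protein-coding genes. The KLF/SP site GGGYGKG, the kind of GC-rich or CACCC-type box that KLF zinc fingers bind, occurred in 2 members (Rpn6 and Rpt4), or 4.17% against 9.18% of all protein-coding genes, and in 5 members when the window reached 250 bases to each side. In windows reaching 100 bp to each side of a summit it occurred at 0 of the 10 optimal peaks of the members. The share was 3.79% of the 2294 optimal summits within 1000 bp of a TSS, so a 0 among 10 says little. In the same summit windows the DRE occurred at 2 of the 10, against 7.15%, and the TATA box TATAAA at 6 of the 10, against 34.1%. The antioxidant response element TGACNNNGC, the type bound by cnc with maf-S, occurred in 7 members (14.6%) against 11.2%, namely Prosalpha2, Prosbeta3, Prosbeta7, Prosbeta4R2, Rpn1, Rpn7 and Rpt6. In the promoter windows the GAGA repeat GAGAGAG occurred in 2 copies alone among the members (4.17% against 9.06%) and the E-box CACGTG in 1 copy (2.08% against 5.29%). The TATA box occurred in 19 members (39.6% against 51.2%), and in 5 of the 9 members with an optimal peak (55.6%). All motifs were read on both strands, and matches were allowed to overlap. The members' promoters had a median GC content of 36.8% in the window reaching 100 bp to each side of the most upstream TSS, against 41.3% over all protein-coding genes. The medians were 38.8% for canonical cap genes, 37.3% for canonical core genes and 34.1% for copies.

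The lid genes held the strongest peaks. Rpn5, a scaffold subunit of the lid, had 2 overlapping optimal peaks. Within 250 bp of its TSS Rpn5 has the weaker of them alone. The stronger ran from 5789021 to 5789436 on 3R, with a signal of 178 at rank 524. Its summit lay 264 bp upstream of Rpn5, in an intron of the neighbour Hat1. It was 155 bp upstream of an inner Hat1 TSS and 155 bp downstream of the Hat1 TSS that lies 109 bp from that of Rpn5. The other, from 5789222 to 5789637, had a signal of 114 at rank 1300 and lay in the intergenic stretch between the 2 genes. Rpn5 had a signal of 127 at rank 382 in replicate 1 and of 52.3 at rank 986 in replicate 3, so it stood high in both.

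Rpn3, another structural lid subunit, had a peak of signal 165 at rank 621 on 2L from 19051603 to 19052018. Its summit was 21 bp downstream of the TSS in the 5′ UTR, with the TSS of l(2)37Bb 178 bp away. The gene ranked 569 in replicate 1 (signal 107) and 809 in replicate 3 (signal 57.7). Rpn12, a lid subunit known in yeast to complete lid assembly, had the only optimal peak that no other gene shared, on 3L from 16582710 to 16583125. It had a signal of 122 at rank 1151, with an intergenic summit 110 bp upstream of the TSS. Its ranks were 1336 in replicate 1 (signal 70.4) and 1295 in replicate 3 (signal 45.5), the closest pair among the 9 genes.

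Rpn6, the lid subunit known as a clamp between cap and core, had a signal of 120 at rank 1180 on 2R from 14752213 to 14752628. The summit lay 150 bp upstream of one Rpn6 TSS, inside an intron of a longer Rpn6 transcript, and 100 bp upstream of ave. Rpn6 ranked 1047 in replicate 1 (signal 80.2) and 1814 in replicate 3 (signal 37.5). Rpn8, the partner of the lid deubiquitinase Rpn11, had the weakest of the optimal peaks at members, with a signal of 67.7 at rank 3213 on 2R from 24402566 to 24402981. Its summit was in an Rpn8 intron, 231 bp upstream of the inner of its TSSs and 94 bp upstream of Slik, which encodes a protein kinase. The peak was not counted when the most upstream TSS alone was used. The replicates differed at Rpn8, with rank 6927 in replicate 1 (signal 27.3) and rank 1976 in replicate 3 (signal 35.7).

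Among the base genes, Rpt5, an ATPase of the unfolding ring, had a signal of 112 at rank 1353 on 3R from 23752637 to 23753052. Its summit was 31 bp upstream of Rpt5 and 11 bp upstream of RanBP3, whose TSS is 42 bp from that of Rpt5. Rpt5 ranked 1168 in replicate 1 (signal 75.8) and 1716 in replicate 3 (signal 38.9). Rpn13, a ubiquitin receptor, had a signal of 94.6 at rank 1806 on 2R from 13960221 to 13960636, with an intergenic summit 25 bp upstream of its TSS. Its ranks were 1568 in replicate 1 (signal 64.3) and 2616 in replicate 3 (signal 30.4). These genes stood within the strongest 3350 peaks of both replicates.

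Rpn2 and Rpt2 were nearer the limit of the optimal set. Rpn2, the large scaffold of the base, had a signal of 72.9 at rank 2848 on 3R from 29153182 to 29153597, with an intergenic summit 134 bp upstream of Rpn2 and 124 bp upstream of Slbp, the gene of the histone stem-loop binding protein. It ranked 2747 in replicate 1 (signal 47.5) and 3717 in replicate 3 (signal 24.5). Rpt2, the ATPase known in yeast to help open the core gate, had a signal of 70.3 at rank 3021 on 3R from 23931335 to 23931750, with a summit in its own 5′ UTR 15 bp downstream of the TSS. It ranked 2769 in replicate 1 (signal 47.3) and 4797 in replicate 3 (signal 20.9). Both were therefore among the strongest 3350 in replicate 1 alone.

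The canonical cap genes without an optimal peak all had a weaker entry in the pooled relaxed list. Rpt3 (signal 65.0, rank 3429) and Rpn9 (signal 61.6, rank 3722) were the next below the optimal set, whose lowest signal was 65.9. They were followed by the ubiquitin receptor Rpn10 at rank 4549, Rpt1 at 4677, the deubiquitinase Rpn11 at 4742 and Rpn7 at 5502. Rpn1, which docks shuttle proteins in yeast, stood at rank 6557, Rpt6 at 8318 and Rpt4, the lowest of the cap, at 15571. All 18 canonical cap genes thus had a pooled relaxed peak, against 62.4% of all protein-coding genes. Some of these entries were weak, with a −log10 q-value of 1.55 at Rpt6 and 0.561 at Rpt4, and were not told apart from background. Of the X-linked canonical members, Rpt3, Rpt4, Rpt6 and Prosalpha4, 0 of 4 had an optimal peak, against 20.4% of all protein-coding genes. The share of X-linked genes was not computed, and a 0 among 4 says little.

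Canonical core genes had peaks weaker than the optimal ones, or none. Of the 14, 10 had a pooled relaxed peak (71.4%), near the 62.4% of all protein-coding genes. The highest was Prosalpha7 of the outer ring at rank 4148 (signal 57.4, summit 17 bp upstream of the TSS). Prosbeta1, the caspase-like protease subunit, followed at rank 4796 (signal 52.3), then Prosalpha6 at 6164, Prosalpha2 at 6395, Prosbeta7 at 7660 and Prosbeta3 at 8447. The other protease subunits were lower, with Prosbeta5, the chymotrypsin-like subunit, at rank 11793 (signal 28.9) and Prosbeta2, the trypsin-like subunit, at 16941 (signal 22.8). Prosalpha4 was at 13392 and Prosbeta6 at 16837. Prosalpha1, Prosalpha3, Prosalpha5 and Prosbeta4 had no pooled peak. The −log10 q-value of the authors was 0.486 at Prosbeta2, against 3.95 at Prosalpha7, a ceiling value that the 9 genes with an optimal peak also had.

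By the rank of the strongest pooled peak, with genes that have none placed last, the median was 3321 for the 18 canonical cap genes and 12592.5 for the 14 canonical core genes, against 15022 for all protein-coding genes. The lid median was 2196.5 and the base median 3989. No median is given for the copies, of which 14 of 16 had no pooled peak.

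**Figure D2:**
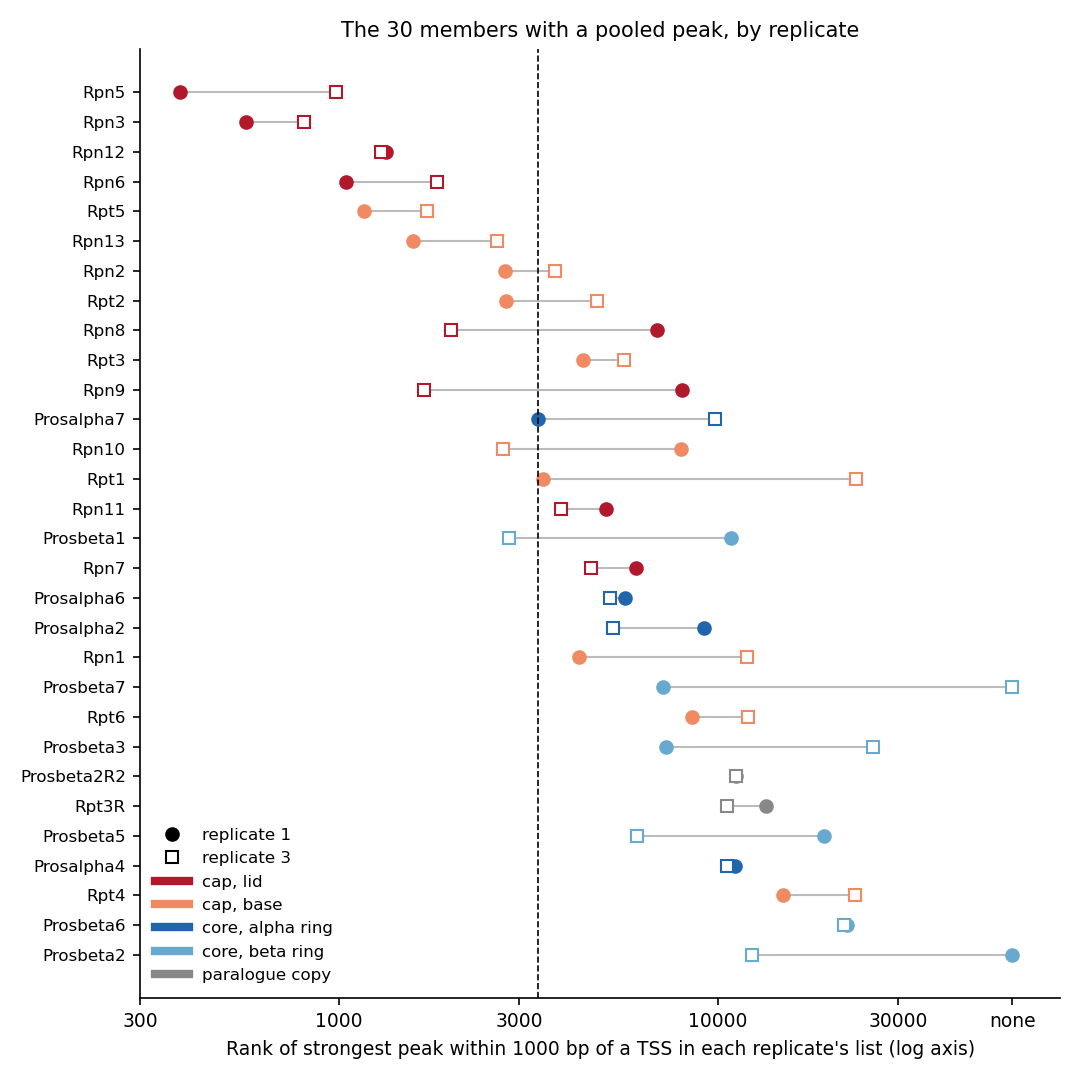
Rank of the strongest peak in replicate 1 (filled circles) and replicate 3 (open squares) for the 30 members with a pooled peak (log axis), ordered by pooled rank, with the dashed line at rank 3350. The 6 highest genes lie left of the line in both replicates, while Rpn8, Rpn9, Rpn10 and Prosbeta1 are left of it in replicate 3 alone.

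The replicates gave the same picture in counts and differed at single genes. Among the strongest 3350 peaks of replicate 1 were 8 of 18 canonical cap genes and 1 of 14 canonical core genes, against 20.3% of all protein-coding genes. In replicate 3 the counts were 9 of 18 and 1 of 14, against 20.2%. Of the 9 genes with an optimal peak, 6 were in both of these sets, 2 in that of replicate 1 alone and 1 in that of replicate 3 alone. The core genes were different ones. Prosalpha3 ranked 3182 in replicate 1 (signal 43.8, summit 43 bp upstream of the TSS) and had no peak within 1000 bp in replicate 3 or in the pooled list. Prosbeta1 ranked 10823 in replicate 1 (signal 20.6) and 2821 in replicate 3 (signal 29.1). Rpt1 ranked 3459 in replicate 1 and 23226 in replicate 3. Each rank is that of the strongest peak within 1000 bp of a TSS, which was not always the same peak in both replicates. At Prosalpha7, for example, it lay 7 bp upstream in replicate 1 and 877 bp downstream in replicate 3. Over the 28 members with a peak in both lists, the ranks had a Spearman rho of 0.604. This is across genes of the same libraries. The optimal set equals the 3350 strongest peaks of both libraries pooled, and some of these ranked below 3350 in 1 replicate.

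Most peaks at cap promoters were shared with a divergent neighbour, as is common for genes with an optimal peak. Of the 9 genes with an optimal peak, 8 shared it with another gene, and at 5 the TSS of that gene was nearer to the summit of the strongest peak. These were Rpn5 with Hat1, Rpn6 with ave, Rpt5 with RanBP3, Rpn2 with Slbp and Rpn8 with Slik. At Rpn3 (with l(2)37Bb), Rpn13 (with CtsL1), Rpt2 (with CG13599) and Rpn12 the member's own TSS was nearest. All 8 sharing genes start head-to-head with the member (88.9% of the 9), and such a neighbour was found at 66.6% of the 2848 protein-coding genes with an optimal peak. A peak list does not tell which of the paired genes a peak belongs to.

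Head-to-head pairing itself was as common at core promoters as at cap promoters. A gene on the other strand began within 1000 bp upstream at 12 of 18 canonical cap genes (66.7%) and 10 of 14 canonical core genes (71.4%), at 4 of 16 copies (25%), and at 39.6% of all protein-coding genes. Of the cap genes so paired, 8 of 12 had an optimal peak, and of the core genes so paired 0 of 10, against 34.3% of all paired protein-coding genes. Core genes paired in this way included Prosalpha4 with kat80 at 90 bp, Prosbeta5 with dgo at 94 bp, Prosbeta1 with Rrp42 at 121 bp and Prosalpha6 with Npc1a at 135 bp. Of unpaired genes, 1 of 6 in the cap (Rpn12) and 0 of 4 in the core had an optimal peak, against 11.3% of all unpaired protein-coding genes.

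**Figure D3:**
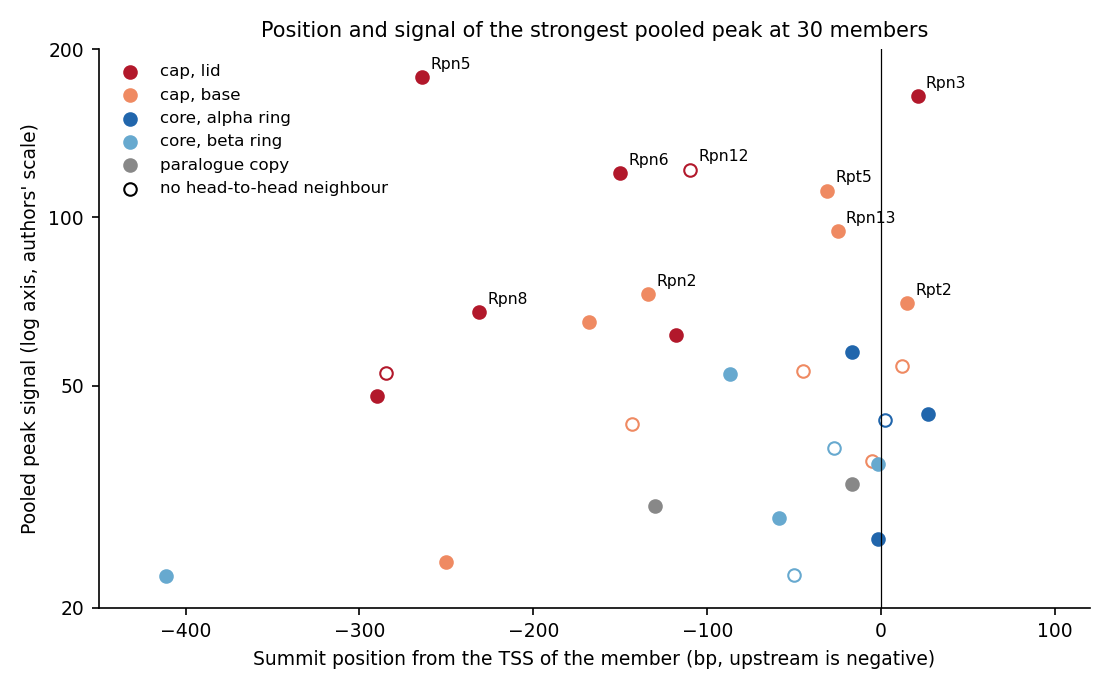
Position of the strongest pooled summit relative to the member's TSS (bp, upstream negative) against its signal on the authors' scale (log axis) for 30 members, with open points for genes without a head-to-head neighbour. The 9 genes with an optimal peak are named, and the core genes lie below a signal of 58.

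Within the 1000 bp searched, the strongest peaks of members lay close to the TSS. The strongest pooled summit was upstream of the TSS at 25 of 30 members, at a median of -54 bp and between -411 and 27 bp, and at 29 of 30 it was within 300 bp. At the 9 genes with an optimal peak the median was -110 bp. Whether closeness is particular to the members was not tested, and distances of pooled summits were not computed for all genes. All 9 members with an optimal summit within 1000 bp had one within 250 bp. Of all protein-coding genes, 2848 had an optimal summit within 1000 bp and 2064 had one within 250 bp. Canonical core genes had no optimal summit within 1000 bp by the way peaks were counted. Their nearest optimal summit lay at 1946 bp (Prosbeta6) to 20297 bp (Prosalpha6).

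The paralogue copies were nearly free of peaks. Of the 16, 14 had no pooled relaxed peak, and 13 had no peak within 1000 bp in any of the lists. A pooled relaxed peak was thus present at 12.5% of copies, against 62.4% of all protein-coding genes. The 2 with a pooled peak were Prosbeta2R2 (signal 33.3, rank 9520, 17 bp upstream of its TSS) and Rpt3R (signal 30.4, rank 10987, 130 bp upstream). Prosbeta2R2 ranked 11177 in replicate 1 and 11172 in replicate 3, and Rpt3R 13463 and 10608. Both are among the 4 copies with a head-to-head neighbour, CG1116 for Prosbeta2R2 and Alg12, a gene of protein glycosylation, for Rpt3R. Prosalpha6T had a weak peak in replicate 3 alone, at rank 18821. The canonical subunits of the same number stood higher at Rpt3 (rank 3429) than at Rpt3R (10987), and lower at Prosbeta2 (16941) than at Prosbeta2R2 (9520).

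The nearest optimal summit lay at a median of 41316.5 bp from the copies, 7525.5 bp from canonical core genes and 884.5 bp from canonical cap genes. These medians partly repeat the counts of optimal peaks within 1000 bp, and no such median was computed for all genes. A single exon was annotated in 6 of 16 copies, against 3 of 18 canonical cap and 1 of 14 canonical core genes. For Prosalpha1 and its copy Prosalpha1R the absence of a peak cannot be read. Every word of 31 bases within 1000 bp of their TSSs occurs more than once in the assembly (100% for each), so reads may not be placeable there. At all other members at most 5.28% of such words were repeated, the highest being Rpn3. Without this pair the counts were 9 of 46 members, 0 of 23 core genes and 0 of 15 copies.

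**Figure D4:**
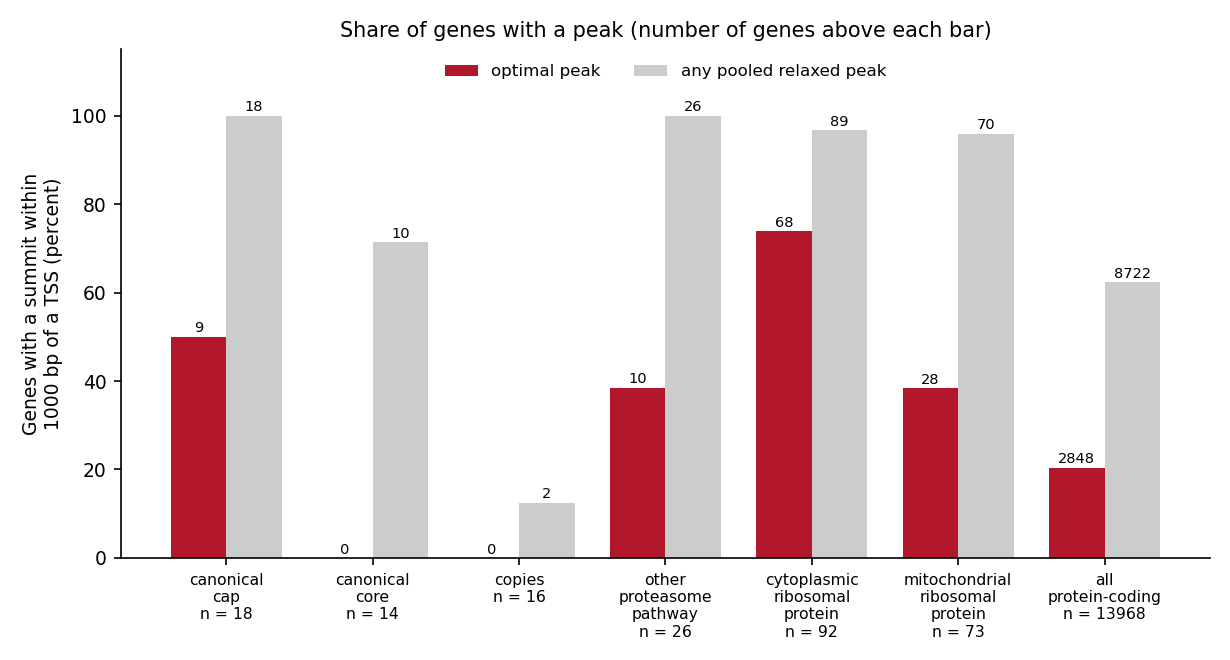
Percent of genes with an optimal peak (red) and with any pooled relaxed peak (grey) within 1000 bp of a TSS, with the number of genes above each bar. Canonical cap genes stand at 50% and canonical core genes and copies at 0% for optimal peaks, beside 20.4% of all protein-coding genes.

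Other genes of the ubiquitin and proteasome pathway stood above the background in counts. Of 26 such genes, 10 had an optimal peak (38.5%), against 20.4% of all protein-coding genes. All 26 had a pooled relaxed one, against 62.4% of all protein-coding genes. The 38.5% was near the 38.4% of mitochondrial ribosomal protein genes. The 26 were picked by hand. The strongest, with its summit at -860 bp from the TSS, was at Keap1, the inhibitor of the stress factor cnc. It had a signal of 225 at rank 312. It was followed by ntc, an F-box protein that binds the core regulator PI31 (signal 137, rank 941), cnc itself (132, rank 998) and CG12321 (123, rank 1116). Pomp, the chaperone of core assembly, had a signal of 109 at rank 1417, unlike the core subunits. The others with an optimal peak were the ubiquitin-conjugating enzyme gene eff, the ubiquitin genes RpS27A and Ubi-p63E, the segregase TER94, and CG8858, with ranks from 1463 to 1990. Sem1, the small lid subunit whose symbol falls outside the naming rule, stood at rank 9921 with no optimal peak, and the core activator gene REG at 16994.

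Set beside other large complexes, 68 of 92 cytoplasmic ribosomal protein genes (73.9%) and 28 of 73 mitochondrial ribosomal protein genes (38.4%) had an optimal peak. The 50% of canonical cap genes lies between these values. The 0% of canonical core genes lies below both and below the background of 20.4%. A pooled relaxed peak was present at 96.7% and 95.9% of the ribosomal lists and at 71.4% of the core genes, against 62.4% of all protein-coding genes. RpL40 and RpS27A are counted both in the cytoplasmic ribosomal list and among the pathway genes above. These differences were not tested.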

How the data were processed

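The 2 libraries form 1 group. The deposited lists on dm6 were 3 relaxed lists (1 for each replicate, 1 for both pooled) and the optimal set. Per the notes beside the files, the relaxed lists entered irreproducible discovery rate (IDR) thresholding and the optimal set came out of it. Aligner, peak caller, IDR threshold and any filter on repeated sequence: "not given in the sources used here". Column 7 of the authors' lists is the signal and column 9 the −log10 q-value, and signal scales differ between lists. The dm3 lists were not used.

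TSSs came from the annotation on 7 arms (18277 genes, 23694 positions, transposable elements left out). Summits were the peak start plus the deposited offset. Coordinates are 1-based on dm6. Members and lists were chosen with earlier results of these data known, so shares stand beside the background with no test. Every member with an optimal peak is described, and others by rank. Of 26 pathway genes all were found, 1 through a synonym (Ufd1). A planned comparison of protein sequences was not made. Tables were made with pandas 2.3.3 and NumPy 2.4.6 in Python 3.11.15, the rank correlation with SciPy 1.17.1 and figures with matplotlib 3.10.9. Peak assignment was tested on simulated summits. The labels call the libraries biological replicates without saying how the collections were kept apart.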

Additional observations from a re-analysis of the deposited data

How the results depend on the processing

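The 0 copies with an optimal peak held under every alternative tried. Where the gene's own TSS had to be the nearest to the summit, 4 members had an optimal peak, all 4 in the cap and canonical, or 8.33% of members and 17.4% of all cap genes against 14.2% of all protein-coding genes, since at Rpn2, Rpn5, Rpn6, Rpn8 and Rpt5 a neighbour is nearer. With the stronger 1675 optimal peaks alone the counts were 5 members, 5 cap genes and 5 canonical genes, against 1603 protein-coding genes. Core genes with a peak numbered 1 within 2000 bp (Prosbeta6), 1 without replicate 3 (Prosalpha3) and 1 without replicate 1 (Prosbeta1), against 0 in the optimal set within 1000 bp. Without one replicate or the other, cap counts were 8 to 9 and counts of all members 9 to 10. Rpn8 was lost without replicate 3 and Rpn2 and Rpt2 without replicate 1, where Rpn9 and Rpn10 were gained. Rpn8 had its peak at an inner TSS and lost it when the most upstream TSS alone was used. Windows of 250 and 500 bp, or any base of a peak in place of its summit, left the 9 members with an optimal peak unchanged. At 250 bp the share of all protein-coding genes was 14.8%, and the strongest signal at Rpn5 was 114, below Rpn3, Rpn12 and Rpn6, since its stronger summit lies 264 bp away. Leaving out Prosalpha1 and Prosalpha1R was chosen after the data were seen and added no peak. With 250 bases to each side of the TSS, KLF/SP letters were found in 5 members and the E-box in 2, and with the most upstream TSS alone the E-box in 0. No paired analysis was possible because there is 1 group. Depth is unknown, so a missing peak was not told apart from one too weak to be listed.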
